A study of Homo sapiens with 10 samples.

Results

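The genes described here encode receptors with which platelets and their precursors, the megakaryocytes, hold on to the vessel wall and to each other. They are ITGA2B, ITGB3, ITGA2, ITGA6, ITGB1, GP1BA, GP1BB, GP9, CD9 and CD36, taken by name, a rule that uses no measured value. Of these 10 genes, 9 had a probe on the array whose accession matched the symbol, with 10 of the 42405 probes between them, since ITGA6 had 2. No probe was matched to GP1BB. Of the 10 probes, 7 probes of 7 genes were bright enough to be tested, and the ITGA2 probe and both ITGA6 probes were not.

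The samples were cultures of MEG-01, a human megakaryoblastic leukemia cell line. The cells were transfected by nucleofection with 200 nM of a precursor of miR-1225-3p, a microRNA described as enriched in platelets, or with 200 nM of a scrambled negative-control precursor, and RNA was taken after 24 hours. Each group had 5 arrays, which the series text calls independent experiments run side by side. The sample titles and the treatment protocol give the control precursor to the scrambled cells, whereas their source label calls them untreated, and the former was used. Both groups therefore carried a transfected precursor, and there was no array of untransfected cells among those compared.

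Integrins are paired chains, an alpha and a beta, that bind matrix proteins outside the cell and the actin skeleton inside it. In platelets αIIbβ3, the product of ITGA2B and ITGB3, binds fibrinogen and links platelets into aggregates. The β1 chain from ITGB1 joins α2 to bind collagen and α6 to bind laminin. The glycoprotein Ib-IX complex, made from GP1BA, GP1BB and GP9, catches von Willebrand factor in flowing blood. CD9 is a tetraspanin, a membrane protein that sits beside integrins, and CD36 binds thrombospondin and oxidized lipids. ITGA2B and GP9 are genes of the megakaryocyte lineage, and promoters of such genes commonly carry sites for GATA and ETS transcription factors.

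The microRNA itself is shown first, because its seed, bases 2 to 8 in capitals, is the stretch with which a microRNA mainly pairs to its target RNAs. The RefSeq entry lies at chr16:2090195-2090216 on the minus strand of GRCh38.p14, and no other mature human microRNA name in the RefSeq table had this seed.
hsa-miR-1225-3p: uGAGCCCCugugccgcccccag
No 3′ UTR sequence was searched, so whether any of these genes carries a match to the seed was not tested.

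The 250 bases before the RefSeq start are shown for ITGA2B and ITGB1, the genes that passed the test on all arrays, and for GP9, the lineage gene of the von Willebrand factor receptor, 5′ to 3′ on the strand of the gene in GRCh38.p14. Capitals mark the letters searched on both strands: GATAA or GATAG for GATA factors, and GGAAG for ETS factors, with matches on the opposite strand capitalized as they read on the printed one. The ITGB1 window belongs to the upstream one of its RefSeq starts.
ITGA2B, chr17:44389650-44389899, minus strand: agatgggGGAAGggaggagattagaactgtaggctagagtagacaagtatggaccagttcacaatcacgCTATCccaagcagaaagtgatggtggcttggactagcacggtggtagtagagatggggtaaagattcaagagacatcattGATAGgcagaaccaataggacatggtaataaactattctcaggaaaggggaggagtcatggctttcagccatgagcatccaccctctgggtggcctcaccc
GP9, chr3:129060529-129060778, plus strand: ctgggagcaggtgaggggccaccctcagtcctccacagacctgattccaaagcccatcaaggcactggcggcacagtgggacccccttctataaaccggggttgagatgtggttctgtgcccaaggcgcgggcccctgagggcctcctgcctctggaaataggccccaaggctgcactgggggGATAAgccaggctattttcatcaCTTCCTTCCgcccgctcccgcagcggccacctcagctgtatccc
ITGB1, chr10:32958231-32958480, minus strand: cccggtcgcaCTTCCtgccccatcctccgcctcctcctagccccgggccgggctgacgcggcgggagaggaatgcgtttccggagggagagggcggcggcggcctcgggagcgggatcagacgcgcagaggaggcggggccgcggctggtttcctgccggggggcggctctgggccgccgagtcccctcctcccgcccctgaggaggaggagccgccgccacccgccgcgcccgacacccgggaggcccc
The ITGA2B window held 2 GATA matches, 181 and 101 bases before the start, and 1 ETS match. The GP9 window held 1 GATA match, 67 bases before the start, and 2 ETS matches that overlap, 44 and 40 bases before it. The ITGB1 window, with a GC content of 78.4%, held no GATA match and 1 ETS match. The window of its other start, chr10:32935559-32935808 with a GC content of 41.6%, held 1 of each, so that GATA matches at ITGB1 depend on the start taken. Of all 35116 such windows in the RefSeq table, 31.9% held a GATA match, 65.1% an ETS match and 19.6% both, so that these short words are common. Among windows not shown, a CD36 window held 3 GATA and 2 ETS matches, and the ITGA2 window held neither. A match of letters is not a binding site. RefSeq windows were at hand for 8 of the 10 genes, and ITGB3 and GP1BA had no entry.

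Signals were log2 values of the background-corrected brightness, brought to a common scale over the 10 arrays by cyclic loess. A probe was counted as detected on an array when a share of at least 0.5 of its spots was well above background, and it was tested when 3 or more of the 5 arrays in either group detected it. Levels of different probes are not compared with each other. The share of spots well above background was 42.0% to 53.8% in the miR-1225-3p group and 43.1% to 61.2% in the scrambled group, with 0 saturated spots.

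Replicate 5 of the miR-1225-3p group stood apart from the other 4. On the first principal component of all tested probes, which held 69.8% of the variance, miR-1225-3p replicates 1 to 4 lay between -146.9 and -57.2, the scrambled arrays between 57.1 and 82.9, and replicate 5 at 63.8, among the scrambled arrays. Results are therefore given with and without it. Since the array was picked out from these same signals, p-values and counts without it are descriptive and lend no support. The arrays came from 2 slides scanned on 1 day, slide 1 holding 3 scrambled arrays with 2 of miR-1225-3p, and slide 2 holding 2 scrambled arrays with 3 of miR-1225-3p, replicate 5 included. Between the groups 7225 of 20648 probes, or 35%, had an adjusted p under 0.05 (limma, Benjamini-Hochberg over all tested probes), 3869 or 18.7% being lower and 3356 higher in miR-1225-3p cells. With each array scaled by its 75th percentile instead, the split was 3262 lower and 5132 higher, and the median log2 fold change of all tested probes went from -0.09 to 0.11. With quantile normalization it was 3063 lower and 4132 higher, with a median of 0.04. Without replicate 5, 11524 probes or 55.8% were called, 6298 or 30.5% of all being lower.

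The listed markers of the megakaryocyte lineage were detected only in part. Of 8 megakaryocyte markers 3, PPBP, NFE2 and GATA1, were bright enough to test and were detected on all 10 arrays. Of the lineage genes described below, ITGA2B was detected on all 10, and GP9 on 3 miR-1225-3p and 5 scrambled arrays. PF4 and TUBB1 were detected on no array, and VWF and SELP on no more than 1. All 6 erythroid markers with a probe were detected on all 10 arrays, 0 of them being called by limma, and HBG1, a fetal globin, had a log2 signal of 17.96 ± 0.28 in miR-1225-3p and 18.34 ± 0.34 in scrambled cells (SD, n = 5 each). PPBP, a platelet chemokine, differed by a log2 value of 0.17 (adjusted p = 0.253, limma), NFE2 by -0.43 (adjusted p = 0.0268) and GATA1 by -1.04 (adjusted p = 0.0573). All 4 monocyte and granulocyte markers with a probe were tested, and MPO was higher by 0.80 (adjusted p = 0.0179), whereas ELANE, another granule gene, was at -0.94 (adjusted p = 0.0550) and at -1.24 without replicate 5 (adjusted p = 0.00228). Of 5 lymphocyte markers NKG7 was lower by -0.73 (adjusted p = 0.0215) and CD3E higher by 1.96 (adjusted p = 0.0328, limma). CD3E was detected on only 3 miR-1225-3p arrays and 1 scrambled array, and MS4A1 and CD2 were detected on no array. In RNA from a whole culture, fewer cells of a kind and less RNA per cell cannot be told apart, and the part of these marker differences in the results was not tested.

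Among the 7 genes tested, ITGA2B and ITGB1 were lower in miR-1225-3p cells and none was higher. That is 28.6% of the tested genes lower, beside 18.7% of all tested probes, a difference that was not tested. With replicate number as a block 0 of all tested probes passed, and the adjusted p was 0.0503 for ITGA2B and 0.0613 for ITGB1 (limma). At an unadjusted p under 0.05, 5 of the 7 were lower and 0 higher, where 27% of all tested probes were lower on this footing. The means of 6 genes were lower, with a median log2 fold change of -1.02, against -0.09 over all tested probes, of which 54.8% had a lower mean. Without replicate 5, limma called ITGA2B, ITGB1 and GP9 lower, where 30.5% of all probes were. GP1BA passed the threshold as well, but it was well above background on 0 of the remaining 4 miR-1225-3p arrays. Its change is therefore given only against a floor for those arrays. For 0 of the 7 did all 5 miR-1225-3p arrays lie below every scrambled array, as they did for 4.84% of all tested probes. Replicates 1 to 4 lay below every scrambled array for 4 of the 7, GP1BA included, and for 24.1% of all tested probes. These counts describe genes that passed the brightness filter, which GP1BA passed only through the scrambled group, and support nothing about the genes as a set.

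**Figure D1:**
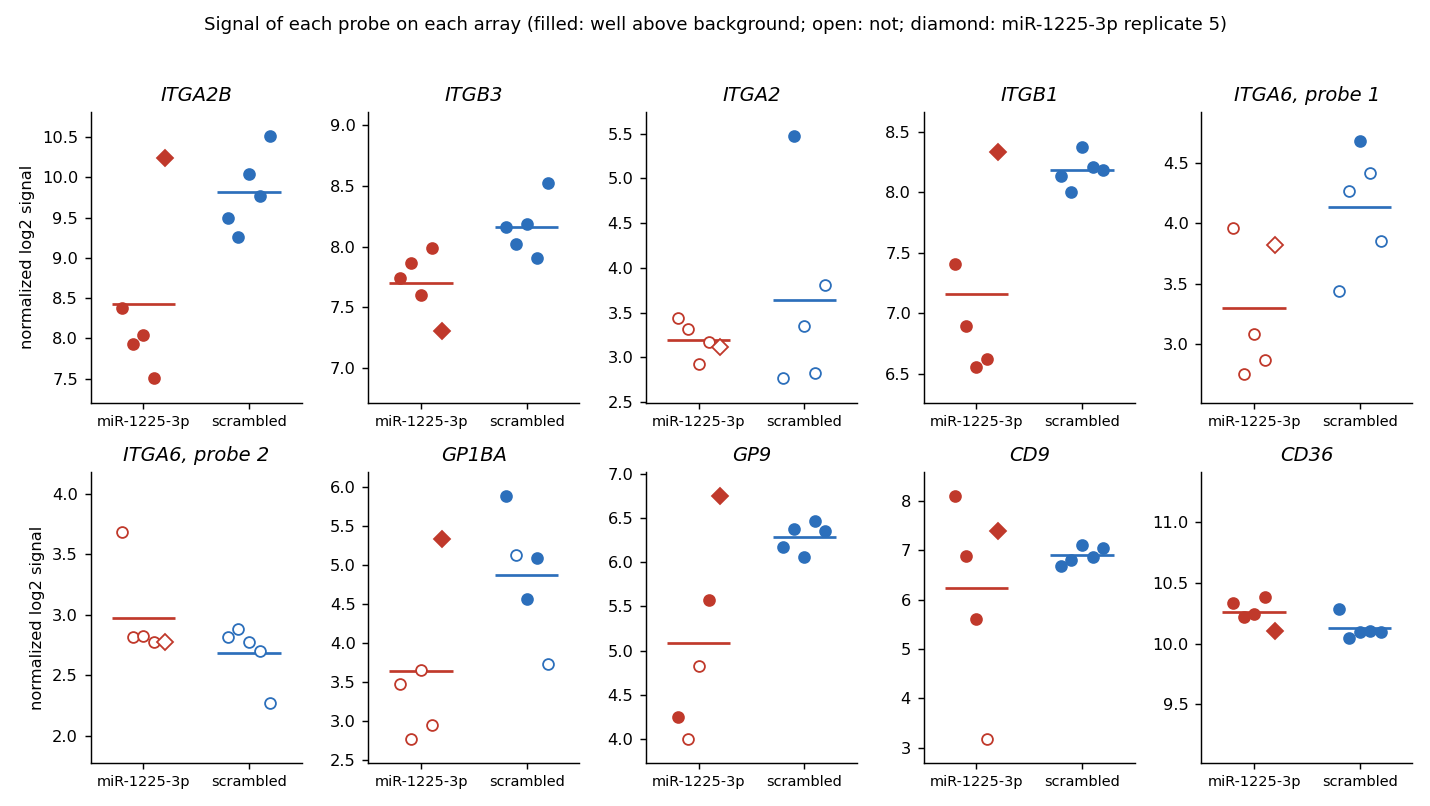
Normalized log2 signal (vertical axis, a separate range in each panel) of each of the 10 probes on the 5 miR-1225-3p and 5 scrambled arrays. Each point is an array, horizontal lines are group means, open points were not well above background, and the diamond is miR-1225-3p replicate 5, which lies far above replicates 1 to 4 for ITGA2B, ITGB1, GP1BA and GP9 but is the lowest point for ITGB3.

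ITGA2B, the αIIb chain of the fibrinogen receptor, was detected on all 10 arrays. Its log2 signal was 8.38, 7.94, 8.05, 7.50 and 10.25 in miR-1225-3p replicates 1 to 5, and 9.50, 9.26, 10.04, 9.77 and 10.51 in scrambled replicates 1 to 5. Replicates 1 to 4 lay below every scrambled array, and replicate 5 lay inside the scrambled range. The means were 8.42 ± 1.07 and 9.82 ± 0.49 (SD, n = 5 each), a log2 fold change of -1.39 ± 0.47 (SE) or 2.63-fold lower (adjusted p = 0.0439, limma). The exact two-sided permutation test of the same difference gave p = 0.0397. Without replicate 5 the change was -1.85 ± 0.27, or 3.60-fold lower (adjusted p = 0.000517, limma). This was the 1 of 10 fits without a single array that kept the call, and the adjusted p of the other 9 lay between 0.0572 and 0.0993.

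ITGB3, the β3 chain and partner of αIIb, was also detected on all 10 arrays. Its log2 signal was 7.74, 7.87, 7.60, 7.99 and 7.30 in miR-1225-3p and 8.16, 8.02, 8.19, 7.91 and 8.52 in scrambled replicates 1 to 5. The groups overlapped through miR-1225-3p replicate 4 and scrambled replicate 4, and replicate 5 was here the lowest array of all. The means were 7.70 ± 0.26 and 8.16 ± 0.23 (SD, n = 5 each), a log2 fold change of -0.46 ± 0.17 (adjusted p = 0.0573, limma), or -0.36 without replicate 5 (adjusted p = 0.0645). ITGB3 therefore did not pass the threshold with or without that array, while the exact two-sided permutation test of this single gene gave p = 0.0159. The adjusted p ranged from 0.0373, with the values as the authors normalized them, to 0.579, within slide 2.

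The signals of these partner chains were also set against each other on each array, a comparison chosen after their values had been seen, in which any constant difference between the probes is the same in both groups. The difference of ITGA2B minus ITGB3 in log2 signal was 0.64, 0.07, 0.45, -0.48 and 2.95 in miR-1225-3p replicates 1 to 5, and 1.34, 1.24, 1.86, 1.86 and 1.99 in scrambled replicates 1 to 5. Replicates 1 to 4 all lay below the scrambled arrays and replicate 5 above all of them. The difference between the groups was -0.93 over all arrays (exact two-sided permutation p = 0.167), and -1.49 without replicate 5. The exact permutation p without replicate 5 was 0.00794, the smallest that 4 arrays against 5 can give. That value follows from the separation of replicates 1 to 4 already seen, so it lends no support. The groups were separated in this difference only when that array was left out, with cyclic loess, with quantile normalization, without normalization and with normexp. A scaling of whole arrays cancels in this difference.

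**Figure D2:**
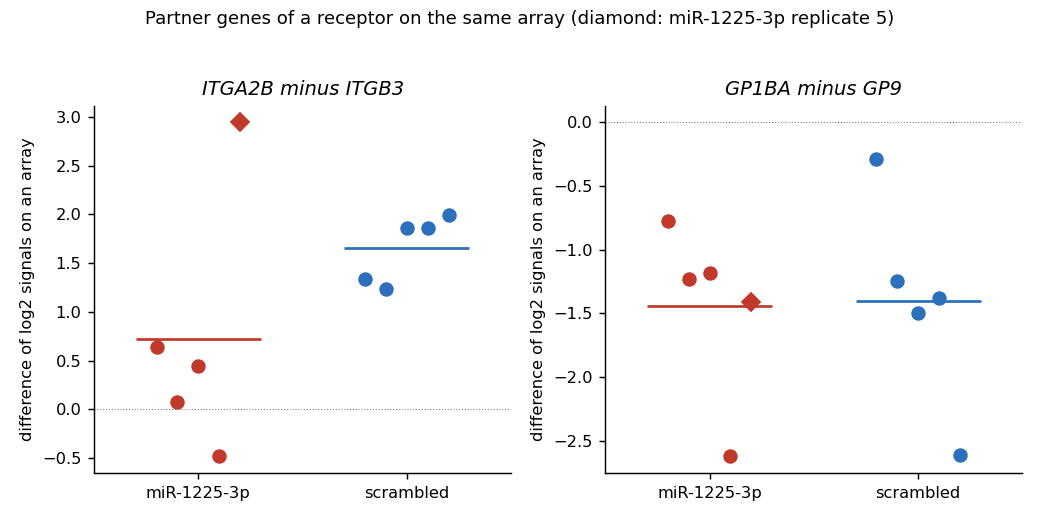
Difference of 2 log2 signals on the same array (vertical axes), ITGA2B minus ITGB3 on the left and GP1BA minus GP9 on the right, for the 5 miR-1225-3p and 5 scrambled arrays. Points are arrays, lines are group means and the diamond is miR-1225-3p replicate 5, which at 2.95 is above all scrambled arrays on the left, whereas the groups overlap on the right.

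GP9, the glycoprotein IX chain of the von Willebrand factor receptor, was detected on 3 miR-1225-3p and all 5 scrambled arrays. Its log2 signal was 4.25, 4.00, 4.83, 5.57 and 6.74 in miR-1225-3p and 6.17, 6.38, 6.06, 6.47 and 6.35 in scrambled replicates 1 to 5. The scrambled arrays lay close together, replicates 1 to 4 of miR-1225-3p lay below all of them, and replicate 5 lay above all of them. The means were 5.08 ± 1.11 and 6.28 ± 0.17 (SD, n = 5 each), a log2 fold change of -1.20 ± 0.45 that missed the threshold (adjusted p = 0.0599, limma), with an exact two-sided permutation p of 0.0556. Without replicate 5 it was -1.62 ± 0.29, or 3.07-fold lower (adjusted p = 0.00146, limma), with 2 of the remaining 4 miR-1225-3p arrays detecting it. With normexp background correction the change over all arrays was -0.35 (adjusted p = 0.206), and over all alternatives the adjusted p ranged from 5.48e-05 to 0.549.

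GP1BA, the glycoprotein Ibα chain that contacts von Willebrand factor itself, was dim, being detected on 1 miR-1225-3p and 3 scrambled arrays. Its log2 signal was 3.48, 2.77, 3.65, 2.95 and 5.33 in miR-1225-3p and 5.88, 5.13, 4.56, 5.09 and 3.74 in scrambled replicates 1 to 5. Replicate 5 was the miR-1225-3p array on which it was detected, and scrambled replicate 5 was nearly as low as the highest of the other miR-1225-3p arrays. The log2 fold change was -1.24 ± 0.52 (adjusted p = 0.0806, limma), from means of 3.64 ± 1.01 and 4.88 ± 0.79 (SD, n = 5 each), and the exact two-sided permutation test gave p = 0.0714. On replicates 1 to 4 it was not well above background. With each of these arrays set to no less than its lowest detected signal of any probe, the scrambled mean was 2.59-fold higher. This is not a strict bound, since scrambled replicate 2 did not detect GP1BA at 5.13 while scrambled replicate 3 did at 4.56. Only 3 of 5 scrambled arrays detected it, and all 5 entered the mean. With normexp background correction the change over all arrays was -0.23 (adjusted p = 0.150). GP1BA minus GP9 on the same array, also chosen after the values had been seen, differed by -0.04 between the groups (exact two-sided permutation p = 0.944). Since GP1BA was near background on most arrays, this comparison cannot tell whether the genes changed alike.

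ITGB1, the β1 chain shared by the collagen and laminin receptors, was measured by 10 spots on each array and detected on all 10 arrays. Its log2 signal was 7.40, 6.89, 6.55, 6.62 and 8.33 in miR-1225-3p and 8.13, 8.004, 8.37, 8.21 and 8.19 in scrambled replicates 1 to 5. Replicates 1 to 4 lay below every scrambled array, and replicate 5 lay inside the narrow scrambled range. The SD between the 10 spots of an array had a median of 0.10. The means were 7.16 ± 0.73 and 8.18 ± 0.13 (SD, n = 5 each), a log2 fold change of -1.02 ± 0.31 or 2.03-fold lower (adjusted p = 0.0322, limma), with an exact two-sided permutation p of 0.0397. Without replicate 5 it was -1.31 ± 0.18, or 2.48-fold lower (adjusted p = 0.000386, limma), and with normexp background correction over all arrays it was -0.61 (adjusted p = 0.0421). Of 10 fits without a single array 2 kept the call, those without miR-1225-3p replicate 1 or 5, and the highest adjusted p of the 10 was 0.0772.

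The alpha chains that join β1 in these receptors were near the background. ITGA2, the collagen-binding α2, was detected on 0 miR-1225-3p arrays and 1 scrambled array, replicate 2, at a log2 signal of 5.47, and its other 9 values lay between 2.77 and 3.81. The 2 spots of the ITGA2 probe differed by 4.44 on that array, at 3.25 and 7.69. ITGA6, the laminin-binding α6, was detected by its first probe on 1 scrambled array, replicate 3 at 4.68. That probe lay between 2.76 and 3.97 in miR-1225-3p and between 3.44 and 4.68 in scrambled cells. The other ITGA6 probe was not detected on any array. None of these 3 probes was tested, and no fold is given for them, since 9 or 10 of the 10 arrays did not measure them above background.

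CD9, the tetraspanin, varied more between its miR-1225-3p arrays than any other gene tested here. Its log2 signal was 8.09, 6.88, 5.60, 3.19 and 7.39 in miR-1225-3p and 6.69, 6.80, 7.10, 6.87 and 7.04 in scrambled replicates 1 to 5. Replicates 1 and 5 lay above every scrambled array, replicates 3 and 4 below every one, and on replicate 4 the probe was not detected. The log2 fold change of -0.67 ± 0.77 was not distinguishable from 0 (adjusted p = 0.498, limma, and exact two-sided permutation p = 0.587). It turned to 0.091 without replicate 4 and to 0.54 within slide 1, against -1.44 within slide 2, so that CD9 has no settled direction.

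CD36, the thrombospondin and lipid receptor, had the smallest difference in means of the 7 genes tested. Its 10 spots gave log2 signals of 10.33, 10.22, 10.24, 10.38 and 10.11 in miR-1225-3p and 10.29, 10.05, 10.10, 10.11 and 10.09 in scrambled replicates 1 to 5. The groups overlapped. The log2 fold change was 0.13 ± 0.11 (adjusted p = 0.372, limma), with an exact two-sided permutation p of 0.0952, and 0.17 without replicate 5 (adjusted p = 0.184). With each array scaled by its 75th percentile it was 0.54 and passed the threshold (adjusted p = 0.0395), and it was called in none of the other 25 alternatives, whose adjusted p reached 0.868.

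**Figure D3:**
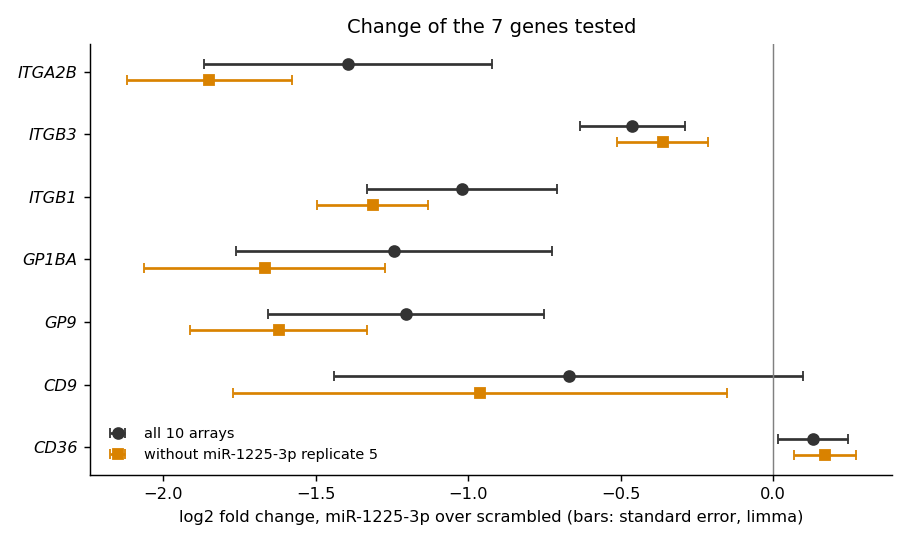
Log2 fold change of miR-1225-3p over scrambled (horizontal axis) for the 7 genes tested, with all 10 arrays (circles) and without miR-1225-3p replicate 5 (squares), bars being the standard error from limma. ITGA2B moves from -1.39 to -1.85 and ITGB1 from -1.02 to -1.31 when replicate 5 is left out, while CD36 stays above 0. The GP1BA square rests on 4 miR-1225-3p arrays that were not well above background.

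The slides gave the following within-slide values. Within slide 1, which did not hold replicate 5, the log2 fold change was -1.86 for ITGA2B (adjusted p = 0.0215, limma), -1.08 for ITGB1 (adjusted p = 0.0262) and -2.07 for GP9 (adjusted p = 0.00902), all called lower. On that slide it was -1.60 for GP1BA (adjusted p = 0.121), -0.49 for ITGB3 (adjusted p = 0.122) and 0.12 for CD36 (adjusted p = 0.634). Within slide 2, which held replicate 5, the values were -0.91 for ITGA2B, -0.94 for ITGB1, -0.71 for GP9, -1.13 for GP1BA, -0.34 for ITGB3 and 0.17 for CD36. No probe passed limma's threshold on slide 2, where 1395 of all probes and 0 of these had an unadjusted p under 0.05. With slide as a block over all arrays, ITGA2B no longer passed the threshold (adjusted p = 0.0631) and ITGB1 did (adjusted p = 0.0480). GP9 passed it in that fit too, at -1.39 (adjusted p = 0.0317, limma).

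Other genes of adhesion were taken from 4 lists by function, each gene by its brightest tested probe. Over all 17379 genes on this footing 18% were lower and 16.8% higher, with a median log2 fold change of -0.06. Of 58 listed genes tested, 13 were lower and 7 higher. With each array scaled by its 75th percentile 9 were lower and 14 higher, so the balance between the directions turned with the scaling, and with quantile normalization 13 were lower and 11 higher. Of these 20 genes, 5 stayed called without each of the 10 arrays in turn, namely ITGAV, SELPLG, RAP1GAP, ILK and ACTN1. None of the 20 turned its sign with the 75th percentile or without normalization.

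Among 21 other integrin subunits 13 were tested, of which 1 was lower and 2 higher, with a median of 0.27. ITGA5, the alpha chain of the fibronectin receptor and like α2 and α6 a partner of β1, was lower by a log2 fold change of -1.52 (adjusted p = 0.0193, limma), or 2.88-fold, from 11.10 ± 0.21 in scrambled to 9.57 ± 0.91 in miR-1225-3p cells (SD, n = 5 each). ITGAV, which pairs with β3 in the vitronectin receptor, was higher by 1.01 (adjusted p = 0.0146), from 12.37 ± 0.15 to 13.38 ± 0.44. ITGA4, another partner of β1, was higher by 0.63 (adjusted p = 0.0218), but its other tested probes gave -0.49 and 1.19 and so disagreed. ITGA1, ITGA3, ITGA8, ITGA10, ITGAD, ITGAL, ITGB6 and ITGB8 had no tested probe.

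Of 18 other platelet adhesion receptors and tetraspanins 11 were tested, of which 1 was lower and 0 higher by limma, with a median of -0.20. F11R was at -0.01 by its brightest probe but at -1.06 by its other one. PECAM1 was at -0.43 by its brightest probe, with -1.10 and -0.87 by the others. SELPLG, the ligand of P-selectin, was lower by -1.42 (adjusted p = 0.0146) or 2.67-fold, and its other probe by -0.98. Without replicate 5, 5 of these genes were lower and GP6, the collagen receptor glycoprotein VI, was higher by 0.59 (adjusted p = 0.0029, limma). Of all tested probes 30.5% were lower without that array. JAM3, counted among the 5, was detected on 1 miR-1225-3p and 5 scrambled arrays, so it passed the filter only through the scrambled group. GP5, CLEC1B, SELP, CD226, EPHB1 and PEAR1 had no tested probe, and none was matched to CD63.

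Of 14 adhesive ligands 7 were tested, of which 1 was lower and 1 higher, with a median of -0.51. THBS1, thrombospondin 1 and a ligand of CD36, was lower by -0.92 (adjusted p = 0.0185) or 1.89-fold, with -1.69 for its other probe. LAMB1, a laminin chain, was higher by 0.49 (adjusted p = 0.0435) but was called in only 1 of the 10 fits without a single array. VWF, FGA, FGB, FGG, FN1, COL1A2 and COL3A1, which include the main ligands of the receptors described here, had no tested probe.

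The genes that activate integrins and tie them to actin were nearly all measured, 27 of 28, with PARVA the one not tested. Of these 10 were lower and 4 higher, with a median of -0.40, and without replicate 5 there were 14 lower and 6 higher. Without that array 55.8% of all tested probes were called and 30.5% of all were lower. CSK, the kinase that holds Src-family kinases inactive, was lower by -2.22 (adjusted p = 0.0205) or 4.66-fold, and FERMT3, kindlin-3, which binds integrin beta tails in blood cells, by -2.08 (adjusted p = 0.0285) or 4.23-fold. FERMT3 was called in 3 of the 10 fits without a single array and CSK in 8. CSK was detected on 4 miR-1225-3p and 5 scrambled arrays, at 5.61 ± 1.40 and 7.83 ± 0.25 (SD, n = 5 each). RAP1GAP, which switches off the integrin-activating GTPase Rap1, was higher by 3.10 (adjusted p = 0.0159) or 8.56-fold, with 9.25 ± 1.73 in miR-1225-3p and 6.16 ± 0.18 in scrambled cells (SD, n = 5 each). FERMT1, kindlin-1, was higher by 0.67 (adjusted p = 0.0368) and was called in 2 of those 10 fits. The actin-linking genes ZYX, ACTN1, ILK and PARVB were among the lower ones and passed the threshold with the 75th percentile too. FLNA, VCL, VASP and CIB1, which binds the αIIb tail, were also lower but lost the call with that scaling, at -0.60 for FLNA (adjusted p = 0.0833, limma), -0.61 for VCL (0.0675), -0.25 for VASP (0.260) and -0.26 for CIB1 (0.218). With cyclic loess over all arrays FLNA was at -1.10 by its brightest probe and at -0.41 by its other one. FLNA, VCL and CIB1 were each called in 1 of the 10 fits without a single array, PARVB in 4, and ZYX and VASP in 7. RAP1A and RAP1B, the Rap1 genes, were higher and were called in 3 and 1 of these fits.

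**Figure D4:**
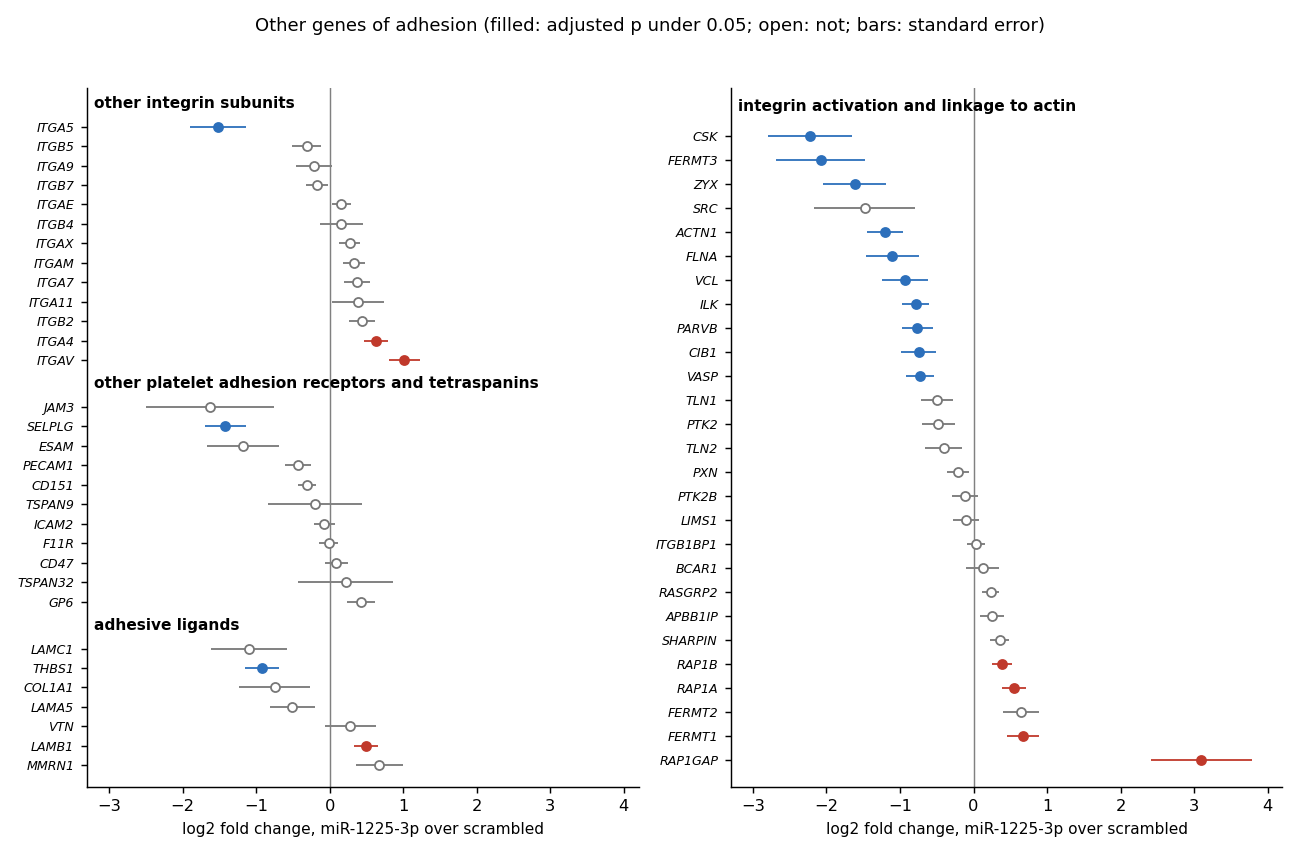
Log2 fold change of miR-1225-3p over scrambled (horizontal axes) for the 58 listed genes tested, grouped by list, each by its brightest probe. Filled points had an adjusted p under 0.05, blue lower and red higher, open points did not, and bars are the standard error from limma. RAP1GAP at 3.10 is the farthest right, and CSK at -2.22 and FERMT3 at -2.08 are the farthest left.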

How the data were processed

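Cy3-labelled RNA of MEG-01 cells was measured on 10 single-colour Agilent arrays, 5 of each group. The authors deposited scanner output of Feature Extraction, whose header gives version 10.7.3.1 and whose version in the methods differs. Per the file headers, its processed signal is an intensity from which the software had subtracted the background. The authors also deposited normalized log2 values of 29271 probes, made by cyclic loess per the methods, which correlated with those computed here at 0.981 to 0.998 per array after centring each probe, and whose column medians lay between 4.77 and 5.15. Flags were used as deposited.

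Here, log2 processed signals of 58717 non-control spots were put on 1 scale with cyclic loess in limma 3.58.1 (R 4.3.3), using its fast method with 3 iterations. Control spots (4259) did not enter, outlier-flagged spots counted as missing, and repeated spots were averaged per probe. Accessions of 24910 of 42405 probes gave a symbol through the GRCh38.p14 RefSeq gene list. The array design was made on another build, so no gene coordinates are given. Groups were compared with lmFit and eBayes, with Benjamini-Hochberg adjustment over 20648 probes at 0.05. Single genes were also tested by exact two-sided permutation over arrays, in which 5 arrays against 5 can reach 0.00794. The number of arrays limits the precision. No separate donor is involved, and the p-values measure the spread between these cultures of 1 cell line.

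All 10 genes are described with every probe, and from each list up to 2 largest rises and up to 2 largest falls among called genes, with the genes that had no tested probe. Further called genes of the actin list were named by symbol after their values were seen. The genes, lists and tests were chosen with earlier results of these data known. Alternatives covered normalization, background correction (normexp with offset 50), the authors' values, filters, flags, tests, array weights, blocks and leaving out arrays. The differences between partner genes were added later. The fit was tested on simulated data. Some cell type markers are not reported here. The microRNA measurements of platelets were not analysed here.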

Additional observations from a re-analysis of the deposited data

Results flagged for a closer look

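Within each group of 5 arrays, the highest and the lowest value of each probe were compared with the rest by Dixon's ratio, and 2 of 20 groups passed its limit, where chance passes about 1 in 20. The CD36 signal of scrambled replicate 1 was 10.29, with the nearest other scrambled array at 10.11 (ratio 0.752). The second ITGA6 probe was at 3.69 on miR-1225-3p replicate 1, with the nearest at 2.83 (ratio 0.942), and was not well above background on any array.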

How the results depend on the processing

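With all 10 arrays 7225 probes, 2 of the receptor probes and 20 listed genes passed limma's threshold. Without normalization these were 1224, 0 and 2, without the filter on dim probes 4014, 0 and 12, and with array weights 13990, 4 and 42. The receptor probes called were 1 with quantile normalization and 0 with the methods' t-test. The labels do not say that replicate numbers pair the arrays, although the series text calls the experiments run side by side. Correlations of same-numbered deviations lay between -0.40 and 0.06, which cannot settle whether they do. With replicate number as a block 0 probes, 0 receptor probes and 0 listed genes were called, with 8994, 3 and 22 at an unadjusted p under 0.05. In that fit the adjusted p was 0.0503 for ITGA2B and 0.0613 for ITGB1 (limma). Within slide 2 the counts were 0, 0 and 0, with 1395, 0 and 2 unadjusted. The other receptor counts of 0 stood beside 4 unadjusted without normalization, 6 without the filter and 4 by the t-test. Leaving out each array in turn gave 2280 to 11524 probes, 0 to 4 receptor probes and 5 to 35 listed genes. The receptor count was 4 without miR-1225-3p replicate 5, GP1BA among them, 1 without replicate 1 and 0 without any of the other 8. The cause was not tested.

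ITGA2B was lower in all 26 alternatives and called in 9, ITGB1 in 26 and 13, ITGB3 in 26 and 2, GP9 in 25 and 4, and GP1BA in 25 and 2. The change of CD9 was reversed within slide 1, at 0.54, and ranged from -1.14 to 0.091 over the fits without a single array, being reversed only without miR-1225-3p replicate 4. CD36 was higher in all 26. Arrays give no read depth, and GP1BA, ITGA2 and ITGA6 are limited by a signal close to background.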
